A study of Mus musculus with 23 samples.

Results

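The effect of liver Cpt1a ablation that male and female livers share was measured by pooling the 2 deposited count tables, one of male and one of female livers. Genes were taken by identifier where they stood in both tables: 22852 of the 26522 genes listed in either table. These joined genes held at least 99.98% of the counts of every library. Of them, 14503 had enough counts to be tested, and 8349 did not. The raw counts of 12 LKO livers were set against those of 11 control livers, with the table of origin as a factor, and the direction of each gene was read from each table alone.

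All 23 livers came from mice labelled B100, fed a diet labelled WD for 16 weeks and killed in the fed state. The 4 groups were B100-Control males (n = 5, replicates 1, 2, 3, 4 and 6), B100-LKO males (n = 6), B100-Control females (n = 6) and B100-LKO females (n = 6). The B100 background, the diet and the fed state are thus shared by controls and LKO animals. LKO stands for the ablation of hepatic CPT1a that the title of the series names. The deleted part of the gene, the Cre driver or other means of deletion, the age of the mice and whether the replicates are littermates are not given in the sources used here. Each sample number was taken as 1 liver. If some livers shared a litter or cage, the p-values measure only the spread between these samples.

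Carnitine palmitoyltransferase 1, whose liver form is the product of Cpt1a, sits in the outer mitochondrial membrane and joins long-chain acyl groups to carnitine. The acylcarnitines are carried across the inner membrane by Slc25a20, turned back into acyl-CoA by Cpt2 and oxidised. This step controls how much fatty acid enters mitochondria, and malonyl-CoA, an intermediate of fatty acid synthesis, inhibits it. Liver also makes cholesterol from acetyl-CoA, through the mevalonate pathway and a series of sterol-modifying enzymes, under the control of the transcription factor SREBP2.

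Total counts per library ran from 14224665 to 19626662. Hepatocyte markers such as Alb and Ttr were high in every library: the summed level of 8 markers was at least 53784 CPM (counts scaled to a common library size with TMM factors). The share of counts from the mitochondrial genome was 4.38 to 5.07% in control males, 4.83 to 5.13% in LKO males, 4.10 to 4.61% in control females and 4.55 to 5.22% in LKO females. Whether this share bears on any result was not tested. In bulk liver, fewer cells of a type and less RNA per cell cannot be told apart. Sex coincides with the table, so sex and any difference in how the tables were made cannot be told apart either.

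Cpt1a itself was checked first. In control males its level was 314, 371, 373, 301 and 426 CPM in replicates 1, 2, 3, 4 and 6. LKO males had a lowest level of 41.8, a median of 57.1 and a highest of 95.9 CPM. Control females had 288, 404 and 436 CPM by the same 3 measures, and LKO females 62.4, 76.7 and 87.7 CPM. All 12 LKO livers lay below all 11 controls. The pooled log2 fold change was -2.42 (SE 0.12, adjusted p = 5.35e-13 by edgeR's quasi-likelihood test with Benjamini-Hochberg adjustment), and 17.7% of the control level was left in males and 19.6% in females. The loss did not differ detectably between the tables (interaction adjusted p = 0.821 by edgeR). LKO livers kept 661 to 1670 Cpt1a counts. Whether these reads come from cells other than hepatocytes, or from a part of the gene outside the deletion, was not tested.

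The paralogs stood low in both genotypes. Cpt1b, the muscle form, had 0 to 9 counts in any library and was too low to be tested. Cpt1c, the brain form, stood between 0.289 and 2.33 CPM in all 23 libraries, with a log2 fold change of 0.14 (SE 0.28, adjusted p = 0.869 by edgeR).

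Across all genes tested, 53 genes were called at an adjusted p under 0.05, which is 0.365% of the 14503. Of these, 32 were higher in LKO livers (0.221% of genes tested) and 21 were lower (0.145%). All 53 had one direction in both tables (0.365%). A pooled test favours genes that move alike in both tables, so that agreement is partly built into the choice and is not independent evidence. With library size alone in place of TMM factors the split was 36 higher and 14 lower. The called set also moved with single libraries: it held 13 genes without control female replicate 5 and 143 without LKO female replicate 1, and 15 of the 23 libraries moved the count by over 1.5 times when left out, which the closing section lists.

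The changes were small. Apart from Cpt1a, the called genes had a median absolute log2 fold change of 0.55 and a range of 0.26 to 1.88. Only 9 reached a log2 fold change of 1 in size, 7 of them higher and 2 lower (Cpt1a and Gm48878). Of the 53, 48 were annotated as protein coding, and 10 had a mean under 50 counts. The female change was the larger in 35 genes and the male change in 18. At the edge of the threshold, Aox1 stood just inside with an adjusted p of 0.0495 and Mup20 just outside with 0.0502.

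**Figure D1:**
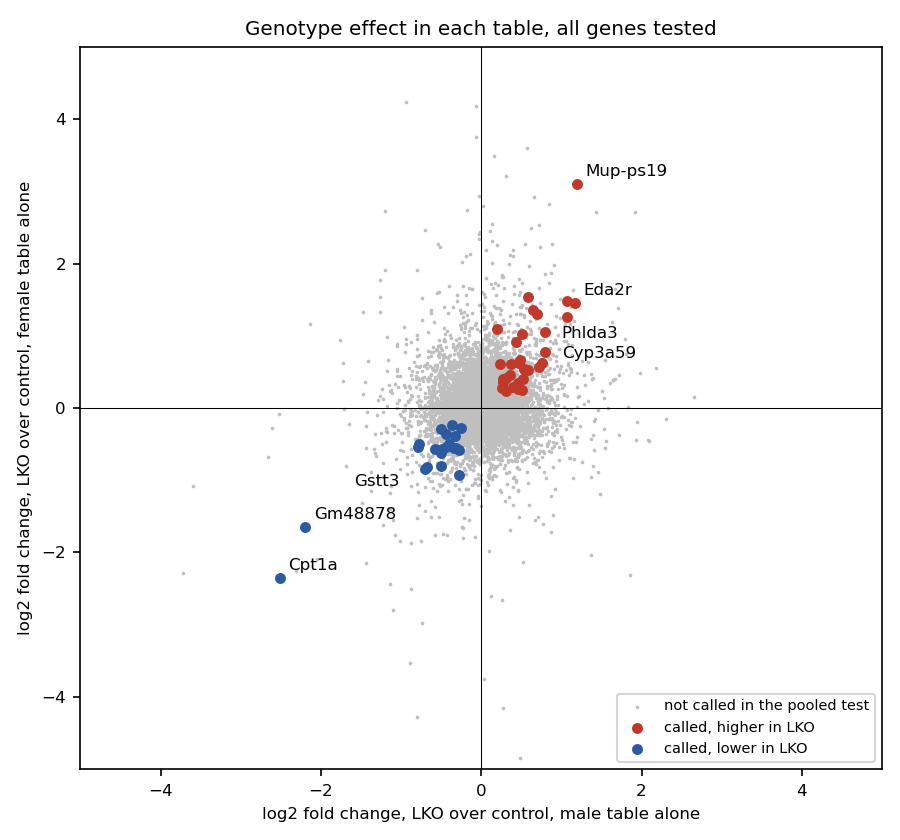
Each point is a gene tested, with the log2 fold change of LKO over control in the male table on the x axis and in the female table on the y axis. Red points are called and higher, blue points called and lower in the pooled test, 2 genes lie outside the plotted range, and the grey cloud shows little relation between the tables.

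Over all genes tested, the fold changes of the tables were only weakly related. The log2 fold changes of males and females had a Pearson r of 0.11 and a Spearman rho of 0.076 across the 14503 genes, which are not independent replicates. Error in the fold changes lowers such correlations, so they do not measure how much of the effect is shared. One direction in both tables was seen for 7504 genes, or 51.7%. An unadjusted p under 0.05 in each table alone was seen for 148 genes with one direction (1.02%) and for 74 with opposite directions (0.51%). Of the 53 called genes, 47 had an unadjusted p under 0.05 in each table. Fitted alone, the male table called only Cpt1a (0.0069%) and the female table called 194 genes (1.34%), of which 26 are among the 53. The other 168 genes of the female table did not pass the pooled test.

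No gene passed the test of a difference between the genotype effects of the tables (0 of 14503 by edgeR, 0%, against 1874 or 12.9% at an unadjusted p under 0.05). DESeq2 called 97 such genes (0.67%), and edgeR called 17 without control male replicate 4. Among the 53, 4 had an unadjusted interaction p under 0.05: Mup-ps19, Sucnr1, Them7 and Nt5dc2. For Nt5dc2 the log2 fold change was 0.20 in males and 1.10 in females (interaction adjusted p = 0.164 by edgeR). Sucnr1, the receptor for extracellular succinate, changed by -0.27 in males and -0.92 in females (interaction adjusted p = 0.227 by edgeR). The sign was shared, and the difference in size did not pass the adjusted test for either gene.

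**Figure D2:**
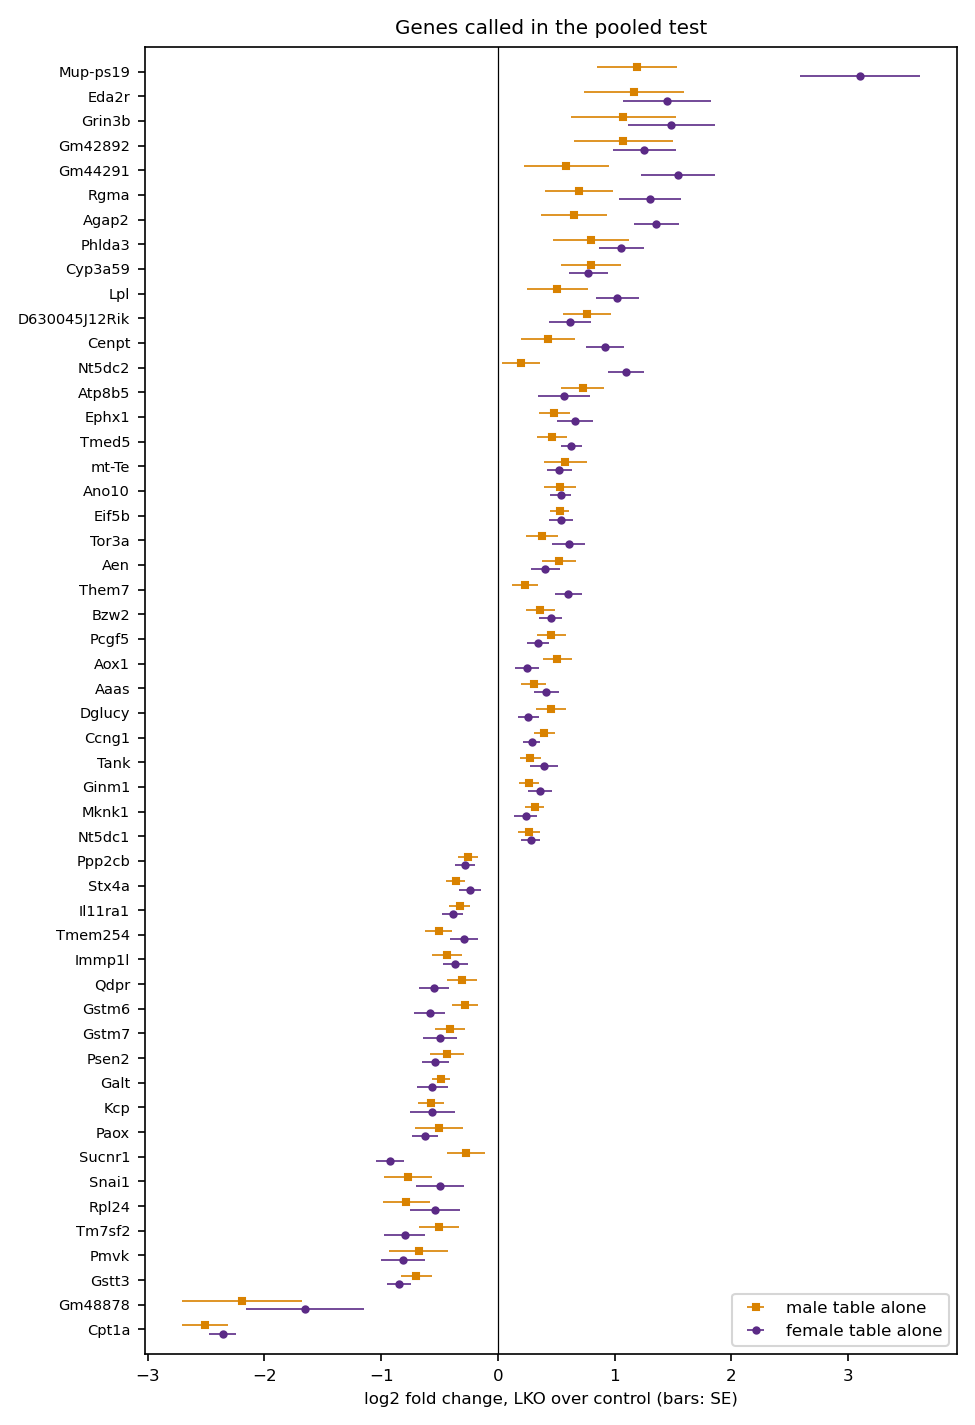
The log2 fold change of LKO over control for the called genes reported here, from the fit of the male table alone (squares) and of the female table alone (circles), with bars for the SE. All pairs lie on one side of 0, and Cpt1a, at the bottom, stands apart from the rest in its size relative to its error.

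Of the 53, 12 were called whichever of the 23 libraries was left out, among them Cpt1a, Gstt3, Eif5b, Tmed5, Ano10, Galt, Ccng1, Il11ra1, Bzw2, Ephx1 and Pcgf5. Of these, Cpt1a, Eif5b, Tmed5, Galt and Ccng1 were called in all 35 settings tried. Il11ra1 and Pcgf5 were also lost under the replicate block, and all but those 5 without the table factor. At the other end, 22 of the 53 were called in fewer than 12 of the 23 fits.

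Gstt3, a theta-class glutathione S-transferase that conjugates electrophiles to glutathione, was the clearest change after Cpt1a. Its level in control males was 43.0, 63.1, 36.3, 42.4 and 52.96 CPM in replicates 1, 2, 3, 4 and 6, against a lowest of 25.4, a median of 29.1 and a highest of 33.5 CPM in LKO males. In females, controls had 90.6, 98.2 and 114 CPM and LKO livers 48.1, 52.3 and 69.3 CPM. The groups did not overlap within either table, which held for 4 genes of the 14503 (0.0276%): Cpt1a, Gstt3, Mup-ps19 and Snai1. The pooled log2 fold change was -0.77 (SE 0.084, adjusted p = 1.45e-05 by edgeR), with -0.70 in males and -0.85 in females. Gstt3 lies on chromosome 10 from 75609949 to 75617248 on the minus strand in the coordinates of the deposited tables (mm39 per the submitters' processing notes). Without the table factor its adjusted p was 0.15.

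Among 26 tested genes of the NRF2 and glutathione list, Gstt3 was the 1 member called by edgeR. Gstt1, another theta-class enzyme, had a log2 fold change of -0.32 and did not pass that test (adjusted p = 0.0798 by edgeR), while DESeq2 gave it an adjusted p of 0.0154 and voom 0.0434. The other members at an unadjusted p under 0.05 were Gsta1 at 1.33, Gstm3 at 0.82 and Nqo1 at 0.35, none of which passed the adjusted test of edgeR, DESeq2 or voom. The median log2 fold change of the list was 0.018, beside 0.0082 over all genes tested, and its sign changed in 4 of 35 settings.

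Gstm6 and Gstm7, mu-class transferases outside that list, fell, with pooled log2 fold changes of -0.44 (SE 0.092, adjusted p = 0.0316) and -0.45 (SE 0.10, adjusted p = 0.0403) by edgeR. They are close copies that lie next to each other on chromosome 3, from 107846163 to 107851065 and from 107833650 to 107839133, both on the minus strand (mm39). Reads that match both could be split between them, so their values are uncertain and not independent of each other. The stretches below, from RefSeq windows (GRCm38.p6), were cut around a motif match that both genes hold: 35 of 40 bases are identical and 5 differ. Being chosen by that match, they do not measure how alike the promoters are. The whole stretch spans chr3:107931615-107931654 for Gstm7 and chr3:107943594-107943633 for Gstm6, minus strand. The capitals at its right end mark a match to the reverse form of the sterol element TCACNCCAC. Relative to a RefSeq start, the match lies at position -9 for Gstm7 and -204 for Gstm6. Each gene also has a further RefSeq start upstream, with windows chr3:107931768-107932067 for Gstm7 and chr3:107943685-107943984 for Gstm6. Relative to that start, the match lies after it in both genes, and so inside the gene. Both stretches begin with atg, and whether they are coding sequence was not tested.
Gstm7: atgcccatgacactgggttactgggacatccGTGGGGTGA
Gstm6: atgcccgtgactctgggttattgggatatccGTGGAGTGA
The calls held in 9 of 23 fits without 1 library for Gstm6 and in 7 for Gstm7.

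Eif5b, the initiation factor that joins the ribosomal subunits, rose in LKO livers. Control males had 26.4, 26.4, 27.0, 31.3 and 27.8 CPM in replicates 1, 2, 3, 4 and 6, all below the LKO males (1.69% of genes tested had groups that did not overlap within the male table), whose lowest, median and highest levels were 34.9, 40.0 and 45.7 CPM. Female controls had 31.4, 32.4 and 36.9 CPM and female LKO livers 36.4, 49.99 and 56.0 CPM, with a small overlap between the highest control and the lowest LKO liver. The pooled log2 fold change was 0.54 (SE 0.066, adjusted p = 9.44e-05 by edgeR), 0.53 in males and 0.54 in females. Its annotated interval on chromosome 1, 38037091 to 38094660 on the plus strand (mm39), overlaps Rev1 on the other strand. The libraries keep the strand, but whether the counting used it is not given in the sources used here.

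Bzw2, a protein related to initiation factor 5 that tunes start-site choice, rose by a log2 fold change of 0.42 (SE 0.074, adjusted p = 0.0129 by edgeR). Its levels were lowest at 6.18, median 6.51 and highest at 7.55 CPM in control males and 7.22, 8.65 and 11.1 CPM in LKO males. Female controls had 7.37, 7.92 and 9.74 CPM, all below the LKO females with 9.99, 11.2 and 12.99 CPM. Mknk1, a kinase that phosphorylates the cap-binding factor Eif4e, rose by 0.28 (SE 0.062, adjusted p = 0.0403 by edgeR). That call held in 5 of the 23 fits without 1 library.

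Tmed5, a cargo receptor of the early secretory pathway, and Ano10, an anoctamin of intracellular membranes, rose to a similar degree. Tmed5 in control males was 53.5, 53.1, 53.2, 53.5 and 68.2 CPM in replicates 1, 2, 3, 4 and 6, and LKO males had 62.1, 74.1 and 101 CPM as lowest, median and highest. Replicate 6 was the only control male above the lowest LKO male. In females the groups were separate, as for 1.53% of genes tested, with 51.0, 55.4 and 62.5 CPM in controls and 71.2, 86.2 and 102 CPM in LKO livers. The pooled log2 fold change of Tmed5 was 0.56 (SE 0.081, adjusted p = 0.00122 by edgeR). Ano10 ran from 13.02 to 18.6 CPM in control males and 18.5 to 27.9 CPM in LKO males, and from 10.3 to 13.9 CPM in control females and 15.6 to 20.5 CPM in LKO females. Its pooled log2 fold change was 0.54 (SE 0.081, adjusted p = 0.00147 by edgeR). Without the table factor its adjusted p was 0.0594, short of the threshold.

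**Figure D3:**
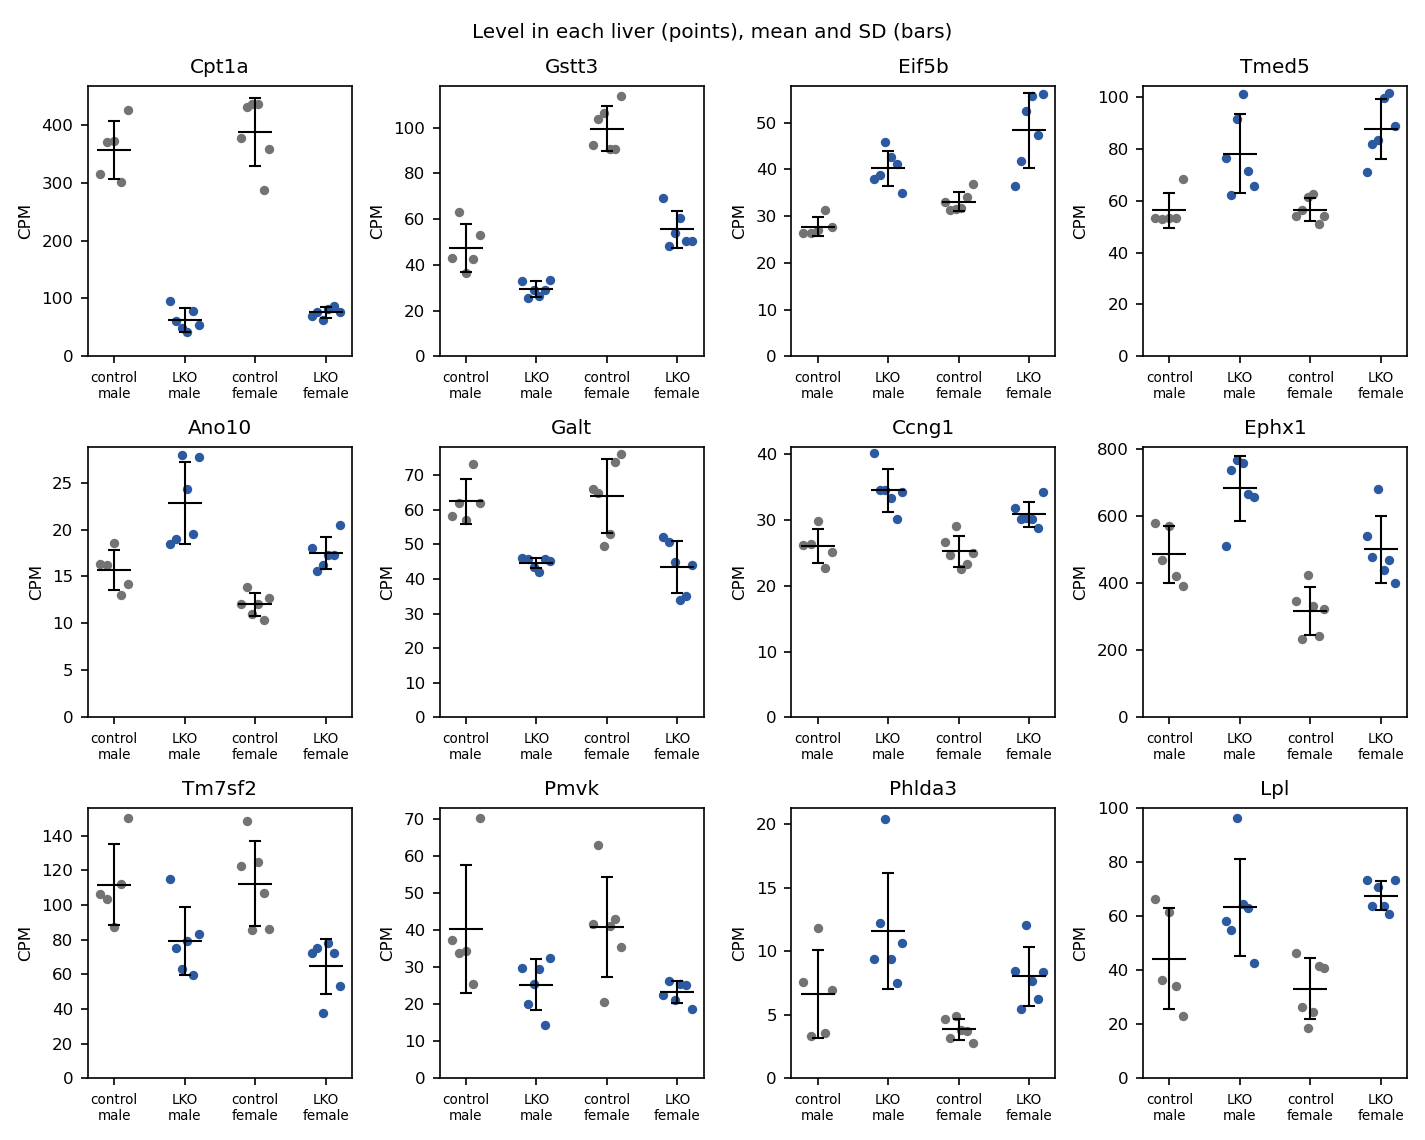
Level of 12 called genes in each liver, in CPM on linear axes from 0, for the 4 groups (points), with the mean (long bar) and SD (short bars). For Cpt1a every LKO liver lies below every control, while for Tmed5, Ano10, Ephx1, Tm7sf2, Pmvk, Phlda3 and Lpl the groups overlap in males.

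Galt and Il11ra1 both fell and lie together. Galt encodes galactose-1-phosphate uridylyltransferase of galactose breakdown, and Il11ra1 the binding chain of the interleukin-11 receptor. Galt was 58.3, 61.9, 56.9, 73.4 and 62.0 CPM in control male replicates 1, 2, 3, 4 and 6, all above the LKO males with 42.1, 45.4 and 45.9 CPM as lowest, median and highest. Control females had 49.7, 65.5 and 76.1 CPM and LKO females 34.0, 44.4 and 52.1 CPM, which overlap. Its pooled log2 fold change was -0.52 (SE 0.079, adjusted p = 0.00147 by edgeR). Il11ra1 changed by -0.36 (SE 0.063, adjusted p = 0.0123 by edgeR). Il11ra1 ran from 41.1 to 55.9 CPM in control males, 35.2 to 42.5 in LKO males, 46.9 to 67.1 in control females and 38.8 to 48.1 in LKO females. Its levels overlap between genotypes in each table.

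In the tables' coordinates (mm39) both genes lie on chromosome 4: Il11ra1 from 41699989 to 41769474 on the plus strand and Galt from 41755228 to 41758695 on the plus strand. The interval of Il11ra1 holds Galt, so reads may be shared and the 2 genes are not independent measurements. Within 1 Mb of Galt, 23 genes were tested and 5, Galt and Il11ra1 among them, had an unadjusted p under 0.05. Over all genes tested, 13.9% had it.

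Psen2 and Ephx1 are neighbours on chromosome 1 that moved in opposite directions. Ephx1, the microsomal epoxide hydrolase, ran from 390 to 578 CPM (median 469) in control males and 510 to 766 CPM (median 701) in LKO males, and from 232 to 423 CPM (median 327) in control females and 399 to 680 CPM (median 473) in LKO females. Its log2 fold change was 0.58 (SE 0.11, adjusted p = 0.0184 by edgeR). Psen2, a catalytic subunit of gamma-secretase, ran from 179 to 316 CPM (median 198) in control males and 139 to 191 CPM (median 162) in LKO males, and from 177 to 284 CPM (median 202) in control females and 136 to 171 CPM (median 146) in LKO females. Its log2 fold change was -0.48 (SE 0.093, adjusted p = 0.0239 by edgeR), and without control female replicate 5 the adjusted p was 0.0526. Ephx1 spans 180803775 to 180848469 and Psen2 180054569 to 180091003, both on the minus strand (mm39). Coq8a, a coenzyme Q kinase just beyond Psen2, had a log2 fold change of -0.72 (adjusted p = 0.0776), and 9130409I23Rik beside Ephx1 one of 0.61 (adjusted p = 0.0694, both by edgeR). Neither passed that test, and DESeq2 gave Coq8a an adjusted p of 0.00922.

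Over all 53 called genes, 9 had another called gene within 1 Mb, or 16.98%, beside 1180 of the 14503 genes tested, or 8.14%. Among the 9 are Galt and Il11ra1, Psen2 and Ephx1, Gstm6 and Gstm7, and Them7 and Immp1l on chromosome 2, which also moved in opposite directions. Whether control and LKO mice carry the same genome at these places is not given in the sources used here, and a difference of this kind and the loss of Cpt1a cannot be told apart for the linked genes, Galt included. The window of 1 Mb around Cpt1a held 40 tested genes, of which Cpt1a alone was called. In it 9 genes, Cpt1a included, had an unadjusted p under 0.05, beside 13.9% of all genes tested. Of the 53, 24 overlap another annotated gene, and the share over all genes tested was not counted.

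**Figure D4:**
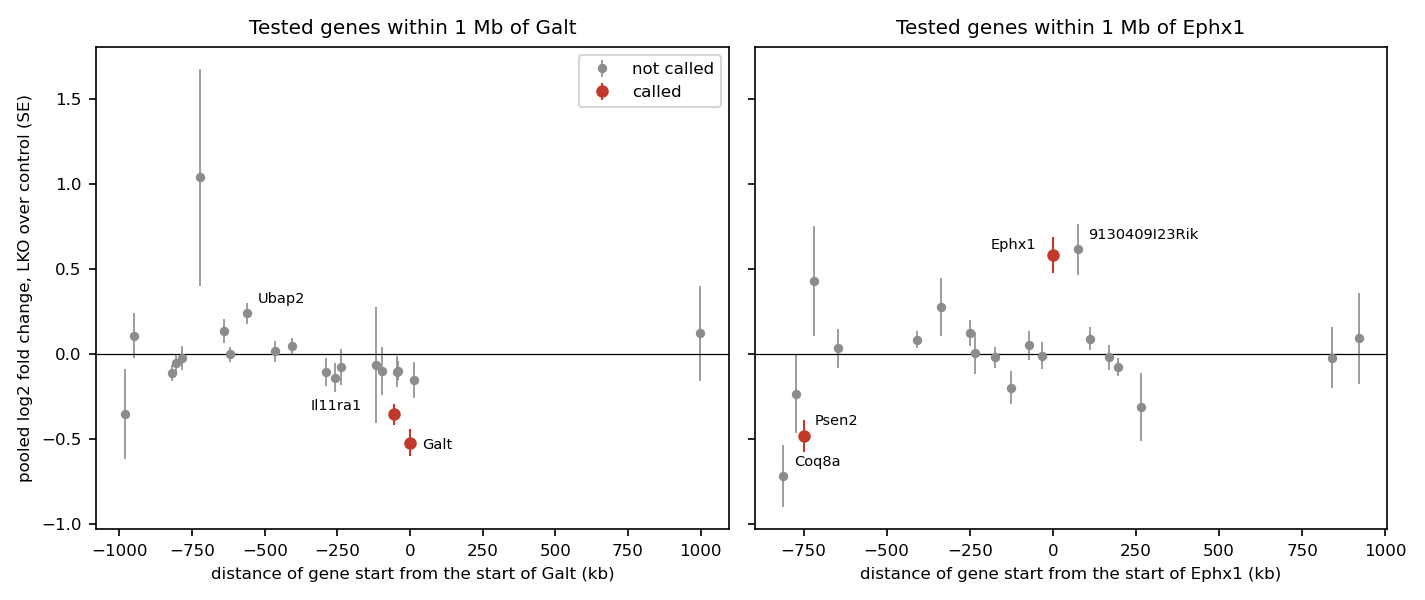
Pooled log2 fold change with SE of tested genes within 1 Mb of Galt (left) and of Ephx1 (right), against the distance of the gene's start from theirs in kb. Called genes are red: Il11ra1 and Galt lie side by side below 0, while Psen2 lies below and Ephx1 above 0 in the other window.

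Ccng1, cyclin G1, a gene known as a target of p53, rose. It ran from 22.7 to 29.9 CPM in control males and, apart from them, from 30.2 to 40.2 CPM in LKO males, and from 22.6 to 29.0 CPM in control females and 28.7 to 34.3 CPM in LKO females. The values in control male replicates 1, 2, 3, 4 and 6 were 26.2, 26.4, 29.9, 22.7 and 25.1 CPM. Its log2 fold change was 0.34 (SE 0.056, adjusted p = 0.00488 by edgeR). Pcgf5, a subunit of a Polycomb repressive complex, rose by 0.40 (SE 0.075, adjusted p = 0.0188 by edgeR), and fell short under the replicate block with an adjusted p of 0.0577.

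Other genes known as p53 targets were among the called ones, a grouping made after their values were seen. Phlda3, which restrains Akt, rose by 0.93 (SE 0.20, adjusted p = 0.0316 by edgeR), from 3.29 to 11.8 CPM in control males to 7.49 to 20.4 in LKO males, and from 2.74 to 4.93 CPM in control females to 5.44 to 12.1 in LKO females. The groups overlap in males and not in females. Aen, an exonuclease of apoptotic cells, rose by 0.47 (SE 0.098, adjusted p = 0.0316 by edgeR), with 7.80 to 16.3 CPM in control males and 18.8 to 20.9 in LKO males, and 9.30 to 13.1 CPM in control females and 11.01 to 17.2 in LKO females. Eda2r, a receptor of the tumour necrosis factor family, rose by 1.31 (SE 0.29, adjusted p = 0.0403 by edgeR) on a mean of 18 counts. The Phlda3 call held in 11 of 23 fits without 1 library, the Aen call in 13 and the Eda2r call in 7, with adjusted p-values of at most 0.0861.

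Of the 20 gene lists, cholesterol synthesis had the largest share of members at an unadjusted p under 0.05. Of 27 tested genes of cholesterol synthesis and SREBP2 targets, 2 were called by edgeR, both lower: Tm7sf2 and Pmvk. DESeq2 called 6 members, all lower, beside 0.987% of all genes, and edgeR called 0 to 3 without 1 library. The calls of voom were Tm7sf2 and the sterol isomerase gene Ebp, both lower, beside 0.365% of all genes. A further 16 had an unadjusted p under 0.05 and a lower level without passing the adjusted test, which makes 18 of 27 (66.7%) beside 6.78% of all genes tested, and none had it with a higher level. The median log2 fold change was -0.43 (-0.31 in males and -0.45 in females), beside 0.0082 over all genes tested, and 25 of 27 had one direction in both tables. These genes are regulated together and are not independent of each other. Over all 35 settings the median kept its sign.

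Tm7sf2, a sterol reductase that acts after lanosterol, fell. Control males had 106, 104, 87.1, 112 and 150 CPM in replicates 1, 2, 3, 4 and 6, and LKO males ran from 59.5 to 115 CPM with a median of 77.2. Control females ran from 85.8 to 148 CPM (median 115) and LKO females, below all of them, from 37.8 to 78.2 CPM (median 72.2). Its log2 fold change was -0.65 (SE 0.13, adjusted p = 0.0273 by edgeR). Pmvk, the phosphomevalonate kinase of the mevalonate pathway, fell by 0.75 on the log2 scale (SE 0.16, adjusted p = 0.0403 by edgeR). Its levels overlap in each table: 25.6 to 70.2 CPM (median 34.3) in control males, 14.3 to 32.6 (median 27.5) in LKO males, 20.7 to 62.9 (median 41.5) in control females and 18.6 to 26.4 (median 23.97) in LKO females. The Tm7sf2 call was lost without control male replicate 6 (adjusted p = 0.0507) and without control female replicates 1, 2 and 5, with a highest adjusted p of 0.0566. The Pmvk call held in 8 of 23 such fits, with a highest adjusted p of 0.0784.

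Other members lay lower without passing the adjusted test of edgeR. Sqle, squalene epoxidase, had a log2 fold change of -1.38 in males and -1.15 in females (pooled -1.25, adjusted p = 0.103). Fdps, farnesyl diphosphate synthase, had -1.02 and -1.85 (pooled -1.37, adjusted p = 0.176). Srebf2 itself had -0.25 and -0.24 (pooled -0.24, adjusted p = 0.158, all by edgeR). Beside these values, 4 of 8 hepatocyte markers had an unadjusted p under 0.05 with a lower level, beside 6.78% of all genes tested. None was called. The summed marker level was 57080 to 83013 CPM in control males, 53784 to 75942 in LKO males, 83339 to 101220 in control females and 58252 to 90250 in LKO females. The part of hepatocyte RNA content in the sterol values was not tested.

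The promoter windows of both called sterol genes are shown because SREBP2 is known to act with the factor NF-Y, which binds the letters CCAAT. Each runs from 250 bases before to 50 after a RefSeq gene start (GRCm38.p6), and capitals mark CCAAT or its reverse form ATTGG. The Tm7sf2 window is chr19:6067801-6068100 on the minus strand, and the Pmvk window is chr3:89454291-89454590 on the plus strand. A further Pmvk start in RefSeq has no such match. The sterol element TCACNCCAC, searched on both strands, was not found in the Tm7sf2 window or in either Pmvk window.
Tm7sf2: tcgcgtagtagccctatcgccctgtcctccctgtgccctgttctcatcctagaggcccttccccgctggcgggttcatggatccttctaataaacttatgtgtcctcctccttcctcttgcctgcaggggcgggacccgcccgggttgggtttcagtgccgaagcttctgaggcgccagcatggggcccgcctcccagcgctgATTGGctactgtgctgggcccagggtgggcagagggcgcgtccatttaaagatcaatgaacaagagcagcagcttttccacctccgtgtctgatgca
Pmvk: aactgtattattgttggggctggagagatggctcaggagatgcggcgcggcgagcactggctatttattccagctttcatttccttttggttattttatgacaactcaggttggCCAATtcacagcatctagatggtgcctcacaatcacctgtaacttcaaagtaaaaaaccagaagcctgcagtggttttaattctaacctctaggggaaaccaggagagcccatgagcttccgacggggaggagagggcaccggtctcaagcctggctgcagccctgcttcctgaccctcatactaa

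Letters were searched on both strands in the windows of 42 of the 53 called genes, which matched RefSeq, and of 19 genes of the sterol list. CCAAT, a search added after the values were seen, was found for 27 of the 42 and 17 of the 19, beside 41.1% of all genes with a window. TCACNCCAC was found for Gstm6, Gstm7, Kcp and Tank among the 42 and for Hmgcs1 among the 19, beside 1.44% of all genes. The Gstm6 and Gstm7 matches lie in the similar stretches of these close copies shown above and are not independent of each other. Both lie after a further RefSeq start of their gene. The Tank match lies after a RefSeq start, at position 24. GGTCANAGG, the core of the site of PPAR-alpha, was found for none of the 42 (2.02% of all genes), nor were TGATGNAAT (1.08%) and TCACGTGA (1.13%). A match is a description of these letters and no evidence of binding.

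Apart from Cpt1a, no gene of the fatty acid oxidation lists was called by edgeR or voom. DESeq2 called 1, Slc22a5 (adjusted p = 0.0376), beside 0.815% of all genes called and higher by that tool. Of 22 tested genes of the carnitine shuttle and mitochondrial beta-oxidation, without Cpt1a, 5 had an unadjusted p under 0.05, all with a higher level (22.7%, beside 7.16% of all genes). The pooled value was above 0 for 18 members and below 0 for 4, and 13 had one direction in both tables. The median log2 fold change was 0.097, with 0.034 in males and 0.19 in females. The carnitine transporter Slc22a5 had 0.51 (SE 0.14, adjusted p = 0.103), the carrier Slc25a20 0.29 (adjusted p = 0.187) and Crat, which makes short-chain acylcarnitines, 0.51 (adjusted p = 0.19, all by edgeR). Cpt2, the enzyme that follows Cpt1a, had 0.16 (adjusted p = 0.373 by edgeR). Ketogenesis genes had a median of 0.092 over 5 genes, none with an unadjusted p under 0.05.

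Genes of peroxisomal oxidation and peroxins had a median of 0.089 over 23 genes, and none was called by edgeR, DESeq2 or voom. Of the 23, 8 had an unadjusted p under 0.05 with a higher level (34.8%, beside 7.16% of all genes tested). Pex11a, a peroxisome division protein, had a log2 fold change of 0.54 (adjusted p = 0.166 by edgeR). The 25 tested PPAR-alpha targets outside the oxidation lists had a median of 0.35, made of 0.085 in males and 0.54 in females. Of these, 9 had an unadjusted p under 0.05 with a higher level (36%, beside 7.16% of all genes tested). None was called by edgeR, DESeq2 or voom. Acot2, a mitochondrial acyl-CoA thioesterase, had the lowest p, with 0.48 in males and 1.39 in females (pooled 0.97, adjusted p = 0.11 by edgeR). Fgf21 had opposite signs, with -0.80 in males and 1.91 in females (pooled 0.57, adjusted p = 0.609 by edgeR). No member of this list passed the interaction test of edgeR, with or without control male replicate 4. DESeq2 called 1 member in that test, Fgf21 (interaction adjusted p = 0.0429), so the call of its difference between the tables depends on the tool.

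**Figure D5:**
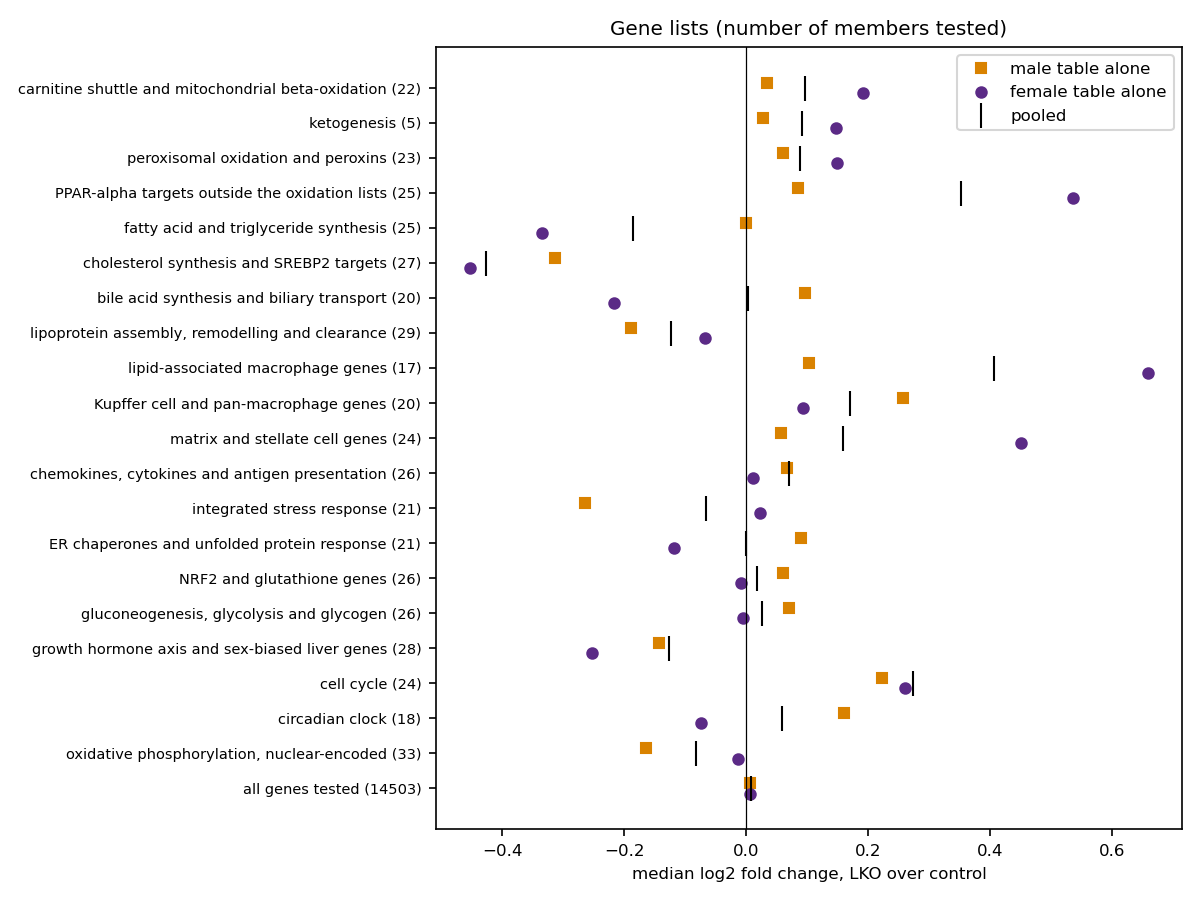
Median log2 fold change of LKO over control for 20 gene lists and for all genes tested, from the male table alone (squares), the female table alone (circles) and the pooled fit (bars), with the number of tested members in brackets. The cholesterol list lies lowest in the pooled fit, at -0.43, and the lists of lipid-associated macrophage genes and PPAR-alpha targets highest, at 0.41 and 0.35, with male medians near 0.

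No gene of the fatty acid and triglyceride synthesis list or of the lipoprotein list was called by edgeR, DESeq2 or voom. The 25 genes of fatty acid and triglyceride synthesis had a median of -0.19, with -0.00 in males and -0.33 in females. At an unadjusted p under 0.05, 4 were lower (16%, beside 6.78% of all genes tested) and 1 higher (4%, beside 7.16%). Pnpla3, a lipid droplet protein, had -0.80 in males and -1.52 in females (pooled -1.19, adjusted p = 0.1 by edgeR). The 29 genes of lipoprotein assembly, remodelling and clearance had a median of -0.12. At an unadjusted p under 0.05, 8 were lower (27.6%, beside 6.78% of all genes tested) and 1 higher (3.45%, beside 7.16%). Apoc3, an inhibitor of lipoprotein clearance, had -0.30 and -0.35 (pooled -0.32, adjusted p = 0.138), while Apob, the core protein of VLDL, had 0.10 (adjusted p = 0.446) and Mttp, which loads it with lipid, 0.11 (adjusted p = 0.454, all by edgeR). The biliary phospholipid pump Abcb4 had 0.30 (SE 0.074, adjusted p = 0.0741 by edgeR and 0.0136 by DESeq2), in a bile acid list whose median was 0.0030 and changed sign in 15 of 35 settings.

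Lpl, lipoprotein lipase, rose and was the 1 member of 17 tested lipid-associated macrophage genes that edgeR called. DESeq2 also called Mmp12 as higher and Fabp5 as lower (adjusted p = 0.0335 and 0.045), beside 1.8% of all genes called by that tool. Lpl ran from 23.01 to 66.4 CPM (median 36.3) in control males and 42.8 to 96.2 (median 60.7) in LKO males, which overlap. Control females ran from 18.8 to 46.5 CPM (median 33.7) and LKO females, above all of them, from 60.8 to 73.3 CPM (median 67.4). The log2 fold change was 0.78 (SE 0.17, adjusted p = 0.0403 by edgeR), with 0.51 in males and 1.02 in females, and the call held in 6 of 23 fits without 1 library, with a highest adjusted p of 0.082. Lpl is also made by fat cells: the summed level of 5 adipocyte markers was 0.322 to 89.5 CPM in control males, 2.02 to 96.4 in LKO males, 0.0654 to 4.49 in control females and 0.0516 to 3.53 in LKO females. Their part in the male values was not tested. The list had a median of 0.41, with 0.10 in males and 0.66 in females. At an unadjusted p under 0.05, 6 members were higher (35.3%, beside 7.16% of all genes tested) and 1 lower (5.88%, beside 6.78%). Gpnmb had 0.30 in males and 3.22 in females (pooled 1.499, adjusted p = 0.249) and Mmp12 0.62 and 2.50 (pooled 1.47, adjusted p = 0.11). Fabp5 had -1.13 and -1.08 (pooled -1.10, adjusted p = 0.103, all by edgeR). Of 6 Kupffer cell markers none had an unadjusted p under 0.05.

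Cell cycle genes had a median of 0.27 over 24 tested members (0.22 in males and 0.26 in females). The level was higher in 23 of 24, beside 7575 of the 14503 genes tested. One direction held in both tables for 21, beside 51.7% of all genes tested. Of the 24, 7 had an unadjusted p under 0.05 with a higher level (29.2%, beside 7.16% of all genes tested). None was called by edgeR or voom. DESeq2 called 1, Mcm6 (adjusted p = 0.0457), beside 0.815% of all genes called and higher by that tool. Mcm6 of the replicative helicase had 0.78 in males and 0.94 in females (pooled 0.87, adjusted p = 0.135), and Cdkn1a, the inhibitor p21 and a p53 target, 0.97 and 0.81 (pooled 0.89, adjusted p = 0.129, both by edgeR). Nuclear-encoded oxidative phosphorylation genes had a median of -0.08 over 33 members, 27 of them below 0, beside 6928 of the 14503 genes tested. Coq8a is the 1 member of that list that DESeq2 called, beside 0.987% of all genes called and lower by that tool. Other lists had medians between -0.13 and 0.17 and no call by edgeR: bile acids, Kupffer and pan-macrophage genes, matrix, chemokines and antigen presentation, the integrated stress response, chaperones, glucose metabolism, the growth hormone axis and the clock. Of these lists, DESeq2 called Abcb4 among bile acid genes and Mup20 and Hsd3b5 in the growth hormone axis, beside 1.8% of all genes. The 1 call of voom was Mup20, beside 0.379% of all genes called and higher by voom.

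The remaining called genes fall into no list. Among those that fell, Paox, a polyamine oxidase, had a log2 fold change of -0.56 (adjusted p = 0.0316), Kcp, a secreted regulator of BMP signals, -0.56 (adjusted p = 0.0251), Immp1l, a protease of the inner mitochondrial membrane, -0.39 (adjusted p = 0.0316) and Qdpr, which recycles the cofactor of phenylalanine hydroxylase, -0.43 (adjusted p = 0.0397, all by edgeR). Snai1, the Snail repressor, had separate groups in all 23 livers, which held for 2 genes of 14503 (0.0138%), the other being Cpt1a. It ran from 1.503 to 2.09 CPM in control males, 0.734 to 1.32 in LKO males, 1.3396 to 2.29 in control females and 0.837 to 1.3369 in LKO females. The gap in females is thus very small. Before scaling, the Snai1 counts of females overlap, with 20 to 35 in controls and 14 to 27 in LKO livers. Its log2 fold change was -0.62 (SE 0.13, adjusted p = 0.0316 by edgeR) on a mean of 22 counts, and the call held in 11 of 23 fits without 1 library.

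Of the genes that rose, Agap2, a regulator of Arf GTPases, had 1.003 (SE 0.19, adjusted p = 0.0208), Rgma, a BMP co-receptor, 1.03 (adjusted p = 0.0251), D630045J12Rik 0.69 (adjusted p = 0.0251) and the cytochrome P450 Cyp3a59 0.79 (SE 0.16, adjusted p = 0.0251, all by edgeR). Cyp3a59 belongs to a family of close copies, so its value is uncertain. Mup-ps19, a pseudogene of the major urinary proteins, had the largest increase, 1.88 (SE 0.36, adjusted p = 0.0208 by edgeR). It stood at 80.0 to 311 CPM in control males and 323 to 796 in LKO males, against 0.196 to 1.77 CPM in control females and 2.63 to 14.6 in LKO females. Reads of its near-identical relatives could be counted there, and the protein-coding Mup20, at 0.996 (adjusted p = 0.0502 by edgeR), lay just outside the threshold and was called in 4 of 12 other settings. The mitochondrial tRNA gene mt-Te rose by 0.55 (SE 0.11, adjusted p = 0.0239 by edgeR), beside the higher share of mitochondrial counts in LKO livers given above, whose part in it was not tested. Rpl24 fell by 0.65 on the log2 scale (adjusted p = 0.0374 by edgeR) on a mean of only 33 counts, and copies of this ribosomal protein gene make it uncertain.

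The authors' deposited table of each sex gave 9 genes an adjusted p under 0.05 in both, among them Gstt3, Ccng1, Cpt1a, Eif5b, Galt, Ano10, Ephx1 and Il11ra1. All 9 had one direction in the authors' deposited tables and all were called in the pooled test, which rests on the same counts. Of the 53 pooled calls, 12 had an adjusted p under 0.05 in the authors' deposited table of males, 39 in that of females and 11 in neither.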

How the data were processed

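RNA from 23 livers was sequenced as poly-T selected, dUTP-stranded libraries, per the labels' protocols. The submitters' processing notes name HISAT2 2.0.5 and mm39; the counter and its strand setting are not given in the sources used here. The authors deposited raw counts per gene, which are the only values tested here. They also deposited FPKM values, a normalized count signal, log2 fold changes and p-values per table, of which only the log2 fold changes and adjusted p-values were used, for comparison.

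Counts of genes in both tables were fitted with edgeR 4.0.16 in R 4.3.3: filterByExpr by the 4 groups, TMM factors, table plus genotype, the quasi-likelihood test and Benjamini-Hochberg adjustment over all genes tested, called under 0.05. The same genes were fitted in each table alone and with 4 group means for the interaction. The steps were tested on simulated data. Named genes are Cpt1a and its paralogs, up to 10 that rose and 10 that fell by shared size with a mean of at least 50 counts, the 4 of each with the lowest p, and the leading member of each list. Genes outside this rule that are named were chosen after their values were seen. The members and lists were chosen with earlier results of these data known. Alternatives used DESeq2 1.42.0, limma 3.58.1 and sva 3.50.0, other scalings, filters and factors, a replicate block, and leaving out each library in turn; calls per list by these tools were counted after the data were seen. Promoter windows are of RefSeq (GRCm38.p6), and gene positions are those of the tables. No sample column was left unmapped. A few genes that enter the counts are not reported here by name or plotted.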

Additional observations from a re-analysis of the deposited data

Results flagged for a closer look

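Of 288 groups of 5 or 6 livers examined for the called genes and the genes named by rule, 17 (5.90%) held 1 liver whose level stood far from the others of its group; about 1 in 20 is what chance gives. Among called genes, control male replicate 4 was the highest control male for Eif5b (31.3 CPM, the others at most 27.8), Psen2 (316 CPM, the others at most 218) and Gm48878 (1.53 CPM, the others at most 0.649), and control male replicate 6 for Tmed5 (68.2 CPM, the others at most 53.5) and Pmvk (70.2 CPM, the others at most 37.4). LKO male replicate 3 was highest for Kcp (8.71 CPM) and Phlda3 (20.4 CPM), and LKO male replicate 5 for Rgma (2.79 CPM). In control females, replicate 2 was highest for Aaas (14.8 CPM), replicate 6 highest for Snai1 (2.29 CPM) and replicate 3 lowest for Paox (50.3 CPM).

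Among genes not called, Pnpla3 was highest in control female replicate 2 (22.9 CPM, the others at most 10.6), and LKO male replicate 5 was highest for Abcb4 (382 CPM) and lowest for Apoc3 (1578 CPM). Derl3 stood out in 3 groups: 53.2 CPM in LKO male replicate 1, 10.002 CPM in control female replicate 3 and 27.1 CPM in LKO female replicate 6. Its log2 fold change of 1.55 did not pass the test (adjusted p = 0.243 by edgeR).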

How the results depend on the processing

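The number of genes called depended on the model more than the direction did. In place of 53, DESeq2 called 261 with all 53 among them, voom with sample weights 108 (48 of the 53 kept), the fit without a table factor 5, and the fit with 1 surrogate variable 22 (16 kept). With the replicate block 23 were called (17 kept). What a replicate number marks is not given in the sources used here, so whether it pairs livers is unresolved. Same-numbered control and LKO livers had correlations of -0.299 to 0.376, over 0.1 in 5 of 11 pairs. As a hint from the data, not the design, 5 of 11 control livers, 4 of them among 6 females, correlated best with the LKO liver of their own number. Every call under these settings had one direction in both tables, except 1 with voom (107 of 108). Leaving out each library in turn gave 13 to 143 calls, all of one direction: 126 without control male replicate 3, 32 without 4; 99, 31, 31 and 33 without LKO male replicates 1, 3, 4 and 5; 19, 27, 13 and 27 without control female replicates 1, 2, 5 and 6; and 143, 33, 23, 24 and 35 without LKO female replicates 1, 3, 4, 5 and 6. The cause was not tested. Other scalings, filters, robust dispersions, the average of the 2 genotype effects and genes of either table gave 37 to 79, of which 1 of the 79 lacked one direction. The interaction count was 0, but 97 by DESeq2 and 0 to 17 without 1 library. No called gene reversed in any setting. Cpt1c reversed, to -0.0237 with 1 surrogate variable. Of 735 list medians, 1 moved beyond its spread: lipoproteins, -0.029 with 1 surrogate variable. Medians that changed sign were those of chaperones (16 of 35 settings), bile acids (15), NRF2 and glucose genes (4 each) and the clock (1), all near 0. Library size alone moved the median of all genes to 0.055 from 0.0082. A mean under 50 counts limits 10 of the 53 calls.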

Other observations

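A list of 24 genes known as p53 targets was written after the calls had been seen, so its counts are a description and support nothing. All 24 were tested, 5 were called and higher (Ccng1, Ephx1, Aen, Phlda3 and Eda2r), beside 0.221% of all genes tested, and 12 (50%) had an unadjusted p under 0.05 with a higher level, beside 7.16% of all genes tested, and none with a lower one. The median log2 fold change was 0.20, with 0.29 in males and 0.22 in females, and 18 of 24 had one direction in both tables. Zmat3, an RNA-binding protein, had 0.40 in males and 0.53 in females (pooled 0.47, adjusted p = 0.0589), and the death receptor gene Tnfrsf10b 0.72 and 1.11 (pooled 0.90, adjusted p = 0.0823). Mdm2, which degrades p53, had 0.37 and 0.10 (pooled 0.23, adjusted p = 0.136, all by edgeR). Against these, the apoptosis gene Bbc3 had -0.27 (adjusted p = 0.48) and Btg2, a brake on proliferation, -0.14 (adjusted p = 0.874, both by edgeR).

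Further values were those of a clock gene and of B or plasma cell markers. Nr1d1, the repressor Rev-erb alpha, had -0.55 in males and -0.91 in females (pooled -0.73, adjusted p = 0.148 by edgeR), while the median of 18 clock genes was 0.058. The summed level of 6 B or plasma cell markers ran from 18.3 to 518 CPM in LKO females, 21.99 to 31.02 CPM in control females, 21.1 to 65.6 CPM in LKO males and 23.2 to 128 CPM in control males, so the groups overlap.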
